A study of Mus musculus with 3 samples.

Results

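Myod1, Myog and Myf5 are 3 myogenic master regulators, and their loci were examined here in mouse embryonic fibroblasts, cells of a lineage other than muscle. The members were given by name and by 1 position each in the mm9 build: Myod1 at 53632000 on chromosome 7, Myog at 136187000 on chromosome 1 and Myf5 at 106921000 on chromosome 10. The rule itself uses no measured value. All fragments with a middle within 50 kb of these positions were taken, which gave 219 fragments at Myod1, 229 at Myog and 227 at Myf5, or 675 of 6415372 in the genome.

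The fibroblasts were wild type and of the C57BL/6 strain. They were profiled by DamID in 3 groups with 1 sample each, transduced with murine retroviruses for Dam-Lamin A, for Dam-Lap2b or for Dam alone (the group labelled Dam Only). In DamID a protein is fused to Dam, a bacterial methyltransferase, and DNA near the fusion acquires methyl marks at GATC sites. Fragments between such sites are then amplified and sequenced. The profiles of the Dam-Lamin A and Dam-Lap2b samples were used, in which each fragment carried a log2 value of the fusion over a reference that was presumably the Dam Only sample. Each fusion also had a list of domains that its authors had called. With 1 sample per group there is no replicate check, and no p-value is given for any comparison. The SDs below describe the spread among fragments or bins of a single library. No expression was measured, so the fibroblast label could not be checked against marker genes.

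The nuclear lamina is a filament network under the inner nuclear membrane. Lamin A is one of its filament proteins and is also found in the nuclear interior, whereas Lap2b is anchored in the membrane. Chromatin in contact with the lamina is mostly poorly transcribed, and developmental genes can leave it when a lineage switches them on. Myod1, Myog and Myf5 encode transcription factors with a basic helix-loop-helix domain that bind E-boxes, whose letters are CANNTG. Myf5 and Myod1 commit precursor cells to the muscle lineage, and Myog drives their later differentiation. Myf6, the remaining factor of this family, is the next protein-coding gene beside Myf5 in RefSeq. The next protein-coding genes on either side were Otog and Kcnc1 for Myod1, and Adora1 and Ppfia4 for Myog.

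Promoter sequences of Myf5 and Myog, from 250 bases before to 50 after the gene start, were taken from RefSeq (build GRCm38.p6). They are shown because DamID reads DNA only as fragments cut at GATC. Capitals mark GATC and CANNTG. Myf5 lies at chr10:107486085-107486384 on the minus strand and Myog at chr1:134289754-134290053 on the plus strand of that build, which differs from the mm9 build of the profiles.
Myf5: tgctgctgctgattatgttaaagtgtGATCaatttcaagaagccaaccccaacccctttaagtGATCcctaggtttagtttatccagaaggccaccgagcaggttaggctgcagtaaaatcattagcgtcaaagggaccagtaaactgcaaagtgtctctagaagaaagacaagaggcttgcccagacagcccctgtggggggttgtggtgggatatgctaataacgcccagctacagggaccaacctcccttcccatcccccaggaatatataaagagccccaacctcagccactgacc
Myog: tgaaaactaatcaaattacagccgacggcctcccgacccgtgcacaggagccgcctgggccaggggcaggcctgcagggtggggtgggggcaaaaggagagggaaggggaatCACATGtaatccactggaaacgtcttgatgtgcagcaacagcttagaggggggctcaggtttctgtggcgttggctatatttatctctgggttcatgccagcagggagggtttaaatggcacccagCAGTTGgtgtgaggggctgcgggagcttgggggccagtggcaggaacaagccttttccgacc
The Myf5 promoter held 2 GATC sites, at bases 27 and 64 counted from its 5′ end, and no CANNTG. The Myog promoter held no GATC, so no fragment border falls within those letters, and it held 2 CANNTG matches, CACATG at base 113 and CAGTTG at base 239. Both motifs read the same on either strand. Of 32851 RefSeq promoters of this length, 48.0% held a GATC and 72.3% a CANNTG. A match describes the letters and not a bound site.

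Across the 100 kb around each gene, Myod1 and Myog averaged below the reference in both profiles, and Myf5 averaged near or above it. At Myod1 the fragments averaged −0.53 ± 1.35 (SD over fragments) in the Dam-Lamin A profile and −1.03 ± 1.27 in the Dam-Lap2b profile. At Myog they averaged −0.20 ± 1.44 and −1.26 ± 1.24. At Myf5 they averaged 0.03 ± 1.09 and 0.29 ± 1.16. Myf5 was thus the highest of the 3 in both profiles. Myog ranked above Myod1 in the Dam-Lamin A profile and below it in the Dam-Lap2b profile, by differences smaller than the SD of the 10 kb bins at either gene. The Dam-Lamin A mean of Myf5 was close to 0 and became −0.017 when fragments were weighted by length. The Dam-Lamin A median of the Myog fragments was also close to 0, at −0.03. The windows held 2580 reads of Dam-Lamin A, 1307 of Dam-Lap2b and 3462 of the reference at Myod1, as recovered from the ratios. They held 4444, 2013 and 5636 at Myog, and 7393, 8432 and 6518 at Myf5, in the same order. Dam-Lap2b thus had the fewest reads at Myod1 and Myog and the most at Myf5.

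Against the genome these are middle to low levels. The median 10 kb bin of the genome was at 0.26 in the Dam-Lamin A profile and 0.47 in the Dam-Lap2b profile, and relative to these medians Myf5 was at −0.24 and −0.17. Of 25670 windows of 100 kb, 33.5% had a lower Dam-Lamin A value than Myod1, 40.8% a lower one than Myog and 45.2% a lower one than Myf5. In the Dam-Lap2b profile the shares were 17.4% for Myod1, 11.7% for Myog and 46.8% for Myf5. Windows of 100 kb that touched no listed domain numbered 9536, and the rank of Myog among them differed between the profiles. Of these, 93.2% were lower than Myog in the Dam-Lamin A profile and 31.1% in the Dam-Lap2b profile. For Myod1 the same shares were 82.2% and 45.9%.

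**Figure D1:**
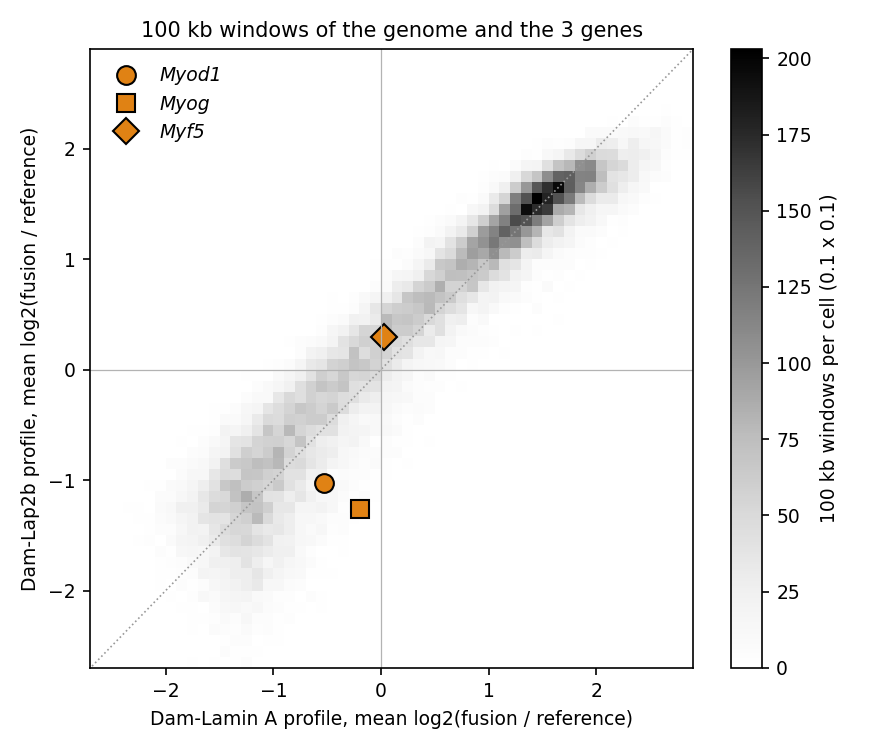
Mean log2 value of each 100 kb window of the genome in the Dam-Lamin A profile (x axis) and the Dam-Lap2b profile (y axis), with darker cells holding more windows, and the means of the fragments within 50 kb of Myod1 (circle), Myog (square) and Myf5 (diamond). Myf5 lies at 0.03 and 0.29, above the dotted line of equal values. Myod1 (−0.53 and −1.03) and Myog (−0.20 and −1.26) lie below that line.

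The listed domains separated Myf5 from the other genes. Of the 10 bins within 50 kb of each gene, 10 at Myf5 and 0 at Myod1 and Myog lay in the Dam-Lamin A list, which held 54.6% of bins in the genome. None of them lay in the Dam-Lap2b list, which held 50.5%. Myod1 lay in no domain of either list. Its nearest domain began 0.796 Mb away in the Dam-Lamin A list (54427566 to 55994045 on chromosome 7) and 0.794 Mb away in the Dam-Lap2b list (54426432 to 55270335). On its other side the nearest domains ended 3.11 Mb and 2.20 Mb away. Myog was farther still, 2.49 Mb from the next Dam-Lamin A domain (138672902 to 138841943 on chromosome 1) and 2.46 Mb from the next Dam-Lap2b domain (138649217 to 138969480). On its other side they ended 3.28 Mb and 3.27 Mb away. None of the 2 Mb centred on Myog was listed, although 57.2% and 53.5% of chromosome 1 was in the Dam-Lamin A and Dam-Lap2b lists.

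Myf5 lay inside a domain of the Dam-Lamin A list that ran from 105288121 to 107034930 on chromosome 10. This domain is 1.75 Mb long, and the gene lay 113.9 kb from its end. The Dam-Lap2b list placed the border on the other side of the gene: its nearest domain (106216493 to 106872797) ended 48.2 kb before Myf5. The stretch with Myf5 was therefore in the Dam-Lamin A list alone, a class that held 6.62% of all 255936 bins of 10 kb. Within 50 kb of Myf5 the Dam-Lap2b profile was the higher one, by 0.27, less than the spread of the bins. The Dam-Lamin A minus Dam-Lap2b difference became −0.066 after centring on the genome-wide medians and 0.040 within 25 kb, so it gives no firm order of the profiles over this stretch. Domains were also called here from each profile by the same rule, as runs of bins above 0 of at least 100 kb. The domain of the Dam-Lamin A profile then ended 51.0 kb from Myf5 and that of the Dam-Lap2b profile 1.0 kb from it. In the Dam-Lap2b profile the run broke at the bin with Myf5, at −0.87. The bins centred 14 to 94 kb after Myf5 were above 0 again, in a run too short to be called.

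The border that the Dam-Lap2b list set beside Myf5 was a steeper step in the Dam-Lamin A profile. Over the 30 kb on each side of position 106872797, the Dam-Lamin A profile went from 1.53 inside to −0.45 outside, a step of 1.99. The Dam-Lap2b profile went from 1.13 to 0.38, a step of 0.75. At the end of the Dam-Lamin A domain at 107034930, beyond Myf5, the Dam-Lamin A profile went from −0.49 to −1.89 and the Dam-Lap2b profile from 0.19 to −0.81, steps of 1.40 and 1.01. Myf5 thus lay between 2 downward steps, each of them present in both profiles. Past the second step, at 107074787, both profiles rose again, by 0.86 (Dam-Lamin A) and 1.07 (Dam-Lap2b). There the next domain of the Dam-Lamin A list began, 153.8 kb after Myf5, and it ended at 107227422.

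**Figure D2:**
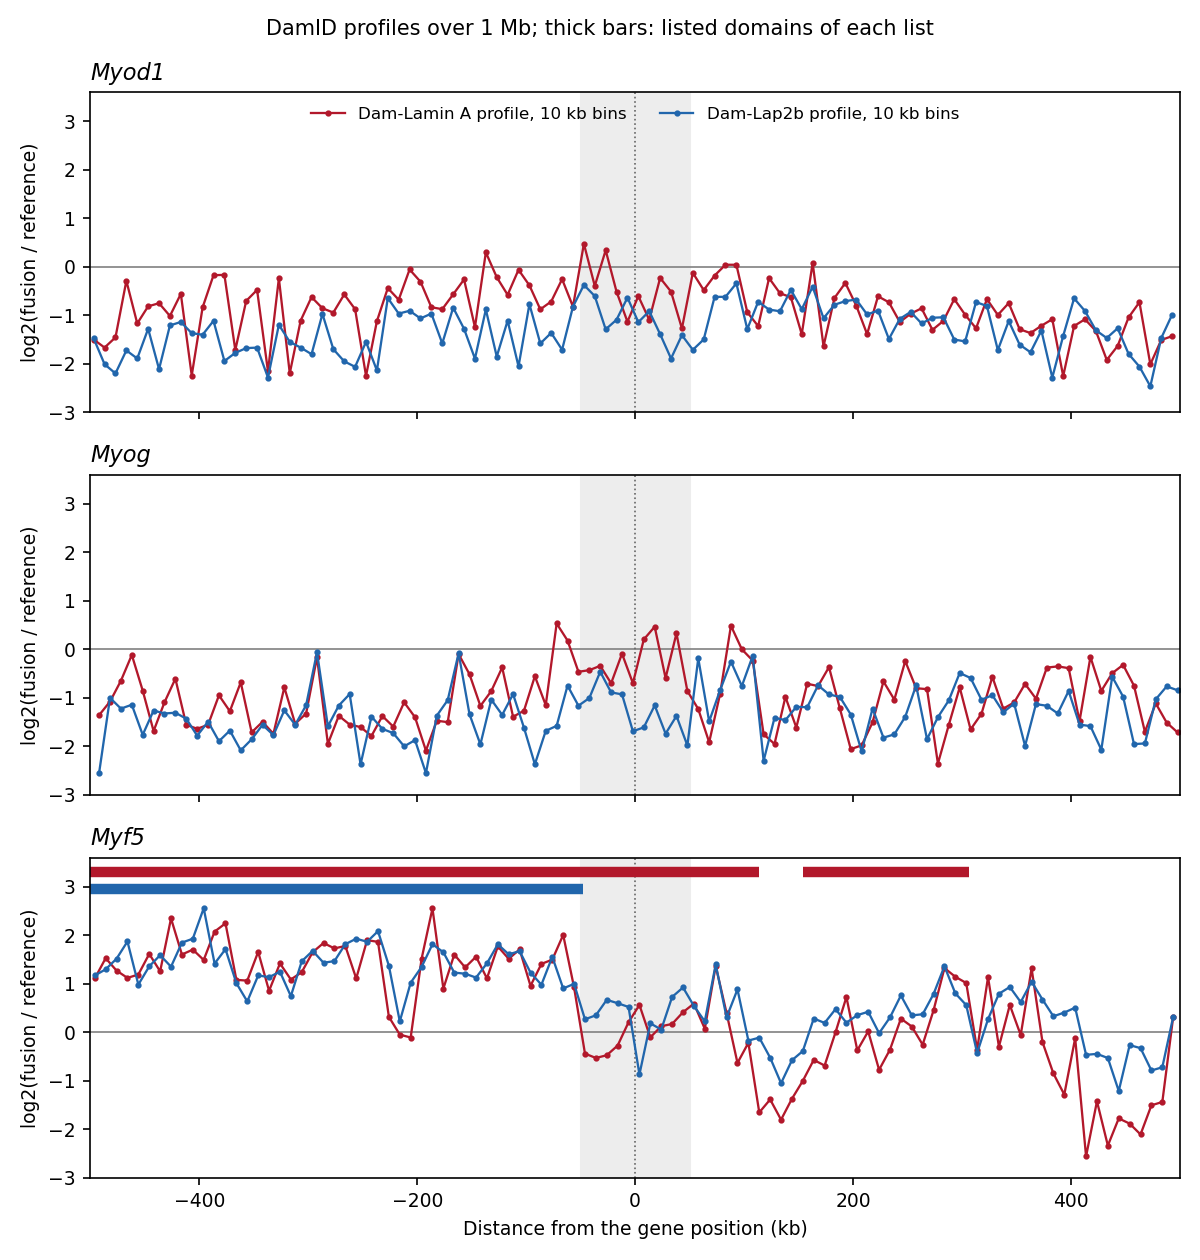
Mean log2 value of 10 kb bins (y axis) against distance from the gene position in kb (x axis) over 1 Mb around each gene, in the Dam-Lamin A profile (red) and the Dam-Lap2b profile (blue); grey shading marks the 50 kb on each side, and thick bars at the top mark listed domains in the colour of their list. Bars appear only at Myf5. Both profiles are high there to the left of the gene, with means of 1.41 in each, and are lower and uneven past it. No bin around Myod1 or Myog is above 0 in the Dam-Lap2b profile.

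Bins of 10 kb showed how even each locus was. A bin was counted as above the reference when its mean exceeded 0, which 55.2% of bins in the genome did in the Dam-Lamin A profile and 59.3% in the Dam-Lap2b profile. Among the 109856 bins in neither list, the shares were 9.69% and 11.7%. At Myod1, 2 of the 10 bins within 50 kb were above 0 in the Dam-Lamin A profile and 0 in the Dam-Lap2b profile. At Myog these numbers were 3 and 0, and at Myf5 they were 5 and 9. The bins at Myod1 ran from −1.28 to 0.47 (median −0.52) in the Dam-Lamin A profile and from −1.89 to −0.38 (median −1.12) in the Dam-Lap2b profile. At Myog they ran from −0.86 to 0.47 (median −0.38) and from −1.98 to −0.46 (median −1.26). At Myf5 they ran from −0.53 to 0.56 (median 0.01) and from −0.87 to 0.92 (median 0.44). In the Dam-Lamin A profile the bins of all 3 genes overlapped widely. In the Dam-Lap2b profile 9 of the 10 Myf5 bins exceeded every bin at Myod1 and Myog, and the remaining one was the bin with Myf5 itself.

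**Figure D3:**
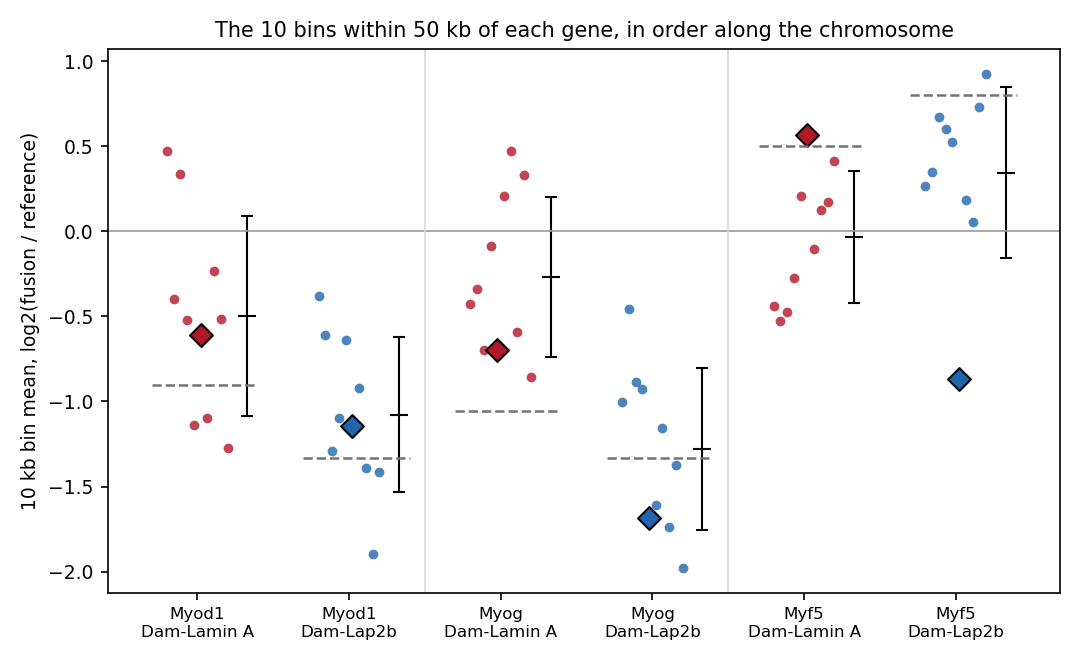
Log2 values (y axis) of the 10 bins of 10 kb within 50 kb of each gene, in both profiles (columns), drawn from left to right in chromosome order. Diamonds mark the bin that holds the gene position, bars give mean ± SD over the 10 bins, and dashed lines give the mean of the other 90 bins of the surrounding 1 Mb. The Dam-Lap2b diamond of Myf5, at −0.87, lies below its 9 neighbours, and the Dam-Lamin A diamond of Myf5, at 0.56, lies above its 9 neighbours.

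Each gene was next set against its own surroundings, the 90 other bins of the 1 Mb centred on it. The Myog locus was raised locally in the Dam-Lamin A profile. Its 10 bins averaged −0.27 ± 0.47 (SD over bins) and the surroundings −1.06, a difference of 0.79, which exceeds the spread of its bins. A difference as large was found in 9.16% of all windows of 100 kb with this comparison. Among the 9378 that touched no listed domain the share was 1.33%. In the Dam-Lap2b profile the same comparison gave −1.28 and −1.33, a difference of 0.05, which changed sign with the averaging (−0.10 with fragments weighted by length). Beyond the window the Dam-Lamin A profile was uneven: the 5 bins from 50 to 100 kb before Myog averaged −0.29 (−1.15 to 0.54), and the 5 bins from 50 to 100 kb after it averaged −0.71 (−1.91 to 0.49). From 100 to 200 kb the averages were −1.07 before and −1.16 after the gene. Within the window the bin with Myog itself had a Dam-Lamin A value of −0.70, against a mean of −0.22 in the 9 other bins. With 20 kb bins the value of its bin was −0.21.

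With unweighted means the local rise around Myod1 was smaller than the spread of its bins. The 10 bins averaged −0.50 ± 0.59 in the Dam-Lamin A profile against −0.90 in the surroundings, a difference of 0.40. In the Dam-Lap2b profile they averaged −1.08 ± 0.45 against −1.33, a difference of 0.25. Differences as large occurred in 23.5% and 28.4% of all 100 kb windows, and in 9.30% and 14.0% of those that touched no listed domain. With a window of 25 kb on each side the Dam-Lamin A difference fell to 0.15. With surroundings of 2 Mb it was 0.24 and that of Dam-Lap2b 0.13. The Dam-Lamin A difference rose to 0.53 with a window of 100 kb on each side. With fragments weighted by length it was 0.60, about the spread of the unweighted bins.

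Myf5 lay lower than its surroundings, which were not alike on its 2 sides. The 10 bins averaged −0.03 ± 0.39 in the Dam-Lamin A profile against 0.50 in the surroundings, and 0.34 ± 0.50 against 0.80 in the Dam-Lap2b profile. The Dam-Lap2b difference, −0.46, was smaller than the spread of its bins. Of all 100 kb windows, 82.9% (Dam-Lamin A) and 83.5% (Dam-Lap2b) had a difference as high or higher. From 500 to 50 kb before the gene, 43 of 45 bins were above 0 in the Dam-Lamin A profile and 45 of 45 in the Dam-Lap2b profile, and both profiles averaged 1.41. From 50 to 500 kb after it, 16 and 29 of 45 bins were above 0, with means of −0.41 ± 1.05 and 0.19 ± 0.61. The sides differed by more than the spread of the bins in both profiles. The difference from the surroundings in the Dam-Lamin A profile, −0.53, became −0.04 with a window of 100 kb on each side, which takes in the high bins before the gene.

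The difference between the profiles was then followed directly, as Dam-Lamin A minus Dam-Lap2b, in which a shared reference cancels. It was 1.07 at Myog, 0.50 at Myod1 and −0.27 at Myf5 over the 100 kb windows. At Myod1 it ran from 0.34 within 25 kb to 1.04 with summed reads. Fragments with equal reads in both fusions, 25 at Myog, 49 at Myod1 and 20 at Myf5, differ only by the constants of the profiles and were left out of the next counts. The Dam-Lamin A value was the higher one for 157 of 204 remaining fragments at Myog, 102 of 170 at Myod1 and 73 of 207 at Myf5, against 48.6% of such fragments in the genome. A window difference as large as at Myog was found in 0.838% of all 100 kb windows and in 1.85% of those that touched no listed domain. At Myod1 these shares were 8.85% and 13.9%. All 10 bins at Myog had the higher value in the Dam-Lamin A profile, by 0.12 to 1.81, as did 8 of 10 at Myod1 and 2 of 10 at Myf5. In the genome 44.2% of 10 kb bins did, and 42.0% of bins in neither list. Neighbouring bins share their library and their surroundings and are not replicates.

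At Myf5 the bin that holds the gene went against its neighbours, and in opposite directions in the profiles. This bin, 106920001 to 106930000, had 30 fragments. Its Dam-Lamin A value was 0.56, above all 9 other bins, which ran from −0.53 to 0.41. Its Dam-Lap2b value was −0.87, below all 9 others, which ran from 0.06 to 0.92. In a bin centred on the gene the values were 0.35 (Dam-Lamin A) and −0.54 (Dam-Lap2b). With 20 kb bins they were 0.29 and −0.43. The Dam-Lamin A value was then below the highest of those 9 bins. The Dam-Lap2b value was still below all of them. Both alternative bins overlap neighbours among those 9, and the 20 kb bin is wider than they are, so these ranks are rough. In the bin from 106920001 to 106930000 the difference between the profiles was 1.43, and 1.31% of all bins in the genome had as large a one. Of the 9 other bins, 8 had the higher value in the Dam-Lap2b profile. In the gene bins of Myod1 and Myog the profiles differed by 0.54 and 0.99, the former of which ranged from 0.031 with 20 kb bins to 1.35 with summed reads. In both profiles these bins lay within the range of their neighbours.

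Single fragments showed where in the Myf5 bin the profiles parted. Of its 30 fragments, 28 had unequal reads in the fusions, and 23 of these had the higher value in the Dam-Lamin A profile, against 48.6% in the genome. The recovered read numbers, which are lower bounds, were 2292 (Dam-Lamin A), 522 (Dam-Lap2b) and 1190 (reference) in this bin. Of 8 fragments with at least 50 reference reads, 7 were above 0 in the Dam-Lamin A profile and 1 in the Dam-Lap2b profile. Of all fragments this deep in the reference, 15.5% and 20.9% were. The deepest was 633 bp long, from 106922742 to 106923374. Its reads were 857 of Dam-Lamin A, 13 of Dam-Lap2b and 292 of the reference, with log2 values of 1.63 and −4.37. The ratio of reads to the reference was 2.93 for Dam-Lamin A (95% exact Clopper-Pearson interval 2.57 to 3.36) and 0.0445 for Dam-Lap2b (0.0234 to 0.0773). These intervals cover counting error alone, since reads after PCR are not independent molecules. In the genome 0.610% of fragments were below −4 in the Dam-Lap2b profile.

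This fragment adjoined a 34 bp fragment of the length that the promoter sequence of Myf5 would give. The sites at bases 27 and 64 are 37 bases apart, and neighbouring fragments in the profiles leave 3 bp between them. Within 50 kb of Myf5, 2 of 227 fragments had that length, and length alone does not choose between them. The one nearer to the gene position, 106923378 to 106923411, had values of 1.21 (Dam-Lamin A) and −2.07 (Dam-Lap2b), with 36 reads of Dam-Lamin A, 3 of Dam-Lap2b and 16 of the reference. The other, 106936611 to 106936644, had −1.92 and 0.61, with 0, 5 and 3 reads. On a minus-strand gene the sequence after base 64 of the promoter lies toward lower coordinates, which for the nearer candidate is the 633 bp fragment.

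The fragment over the position of Myod1 showed a like gap between the profiles. It was 1299 bp long, from 53631069 to 53632367, with log2 values of 0.28 and −4.44. It held 100 reads of Dam-Lamin A, 3 of Dam-Lap2b and 87 of the reference. The ratio to the reference was 1.15 (0.854 to 1.55) for Dam-Lamin A and 0.0345 (0.00698 to 0.104) for Dam-Lap2b, with intervals for counting error alone. Both ratios share the 87 reads of the reference, and the fusions were 1 library each, so the gap has no replicate check. It was the only fragment of the Myod1 bin with at least 50 reference reads. Of the 23 fragments of that bin, 19 had unequal reads in the fusions, and the Dam-Lamin A value was the higher one for 11 of these, near the share of 48.6% in the genome.

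Over the position of Myog no level could be read. The 70 bp fragment there was recovered at 0 reads in all 3 libraries, which for this kind of recovery means equal numbers and not necessarily none. Of the 22 fragments in the Myog bin, 4 had at least 50 reference reads, and all 4 had the higher value in the Dam-Lamin A profile, against 36.0% of such fragments in the genome. The deepest, 620 bp from 136188254 to 136188873, held 73 reads of Dam-Lamin A, 18 of Dam-Lap2b and 212 of the reference. Its ratios were 0.344 (0.260 to 0.451) and 0.0849 (0.0494 to 0.137). In the gene bins, 10 of 22 fragments at Myog, 6 of 23 at Myod1 and 6 of 30 at Myf5 were below −2 in the Dam-Lap2b profile, against 6.90% of fragments in the genome. In the Dam-Lamin A profile 2, 3 and 1 were, against 11.4%. Both genome shares take in listed domains and are not matched to the unlisted stretches of Myod1 and Myog. The median Dam-Lap2b bin was at 1.38 in both lists and at −0.90 in neither list. The fragments described singly were picked after their values were seen, and picking fragments with many reference reads lowers both ratios. It also shifts the order of the profiles. In the genome the Dam-Lamin A value was the higher one for 48.6% of fragments with unequal reads. Among those with at least 50 reference reads the share was 36.0%.

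**Figure D4:**
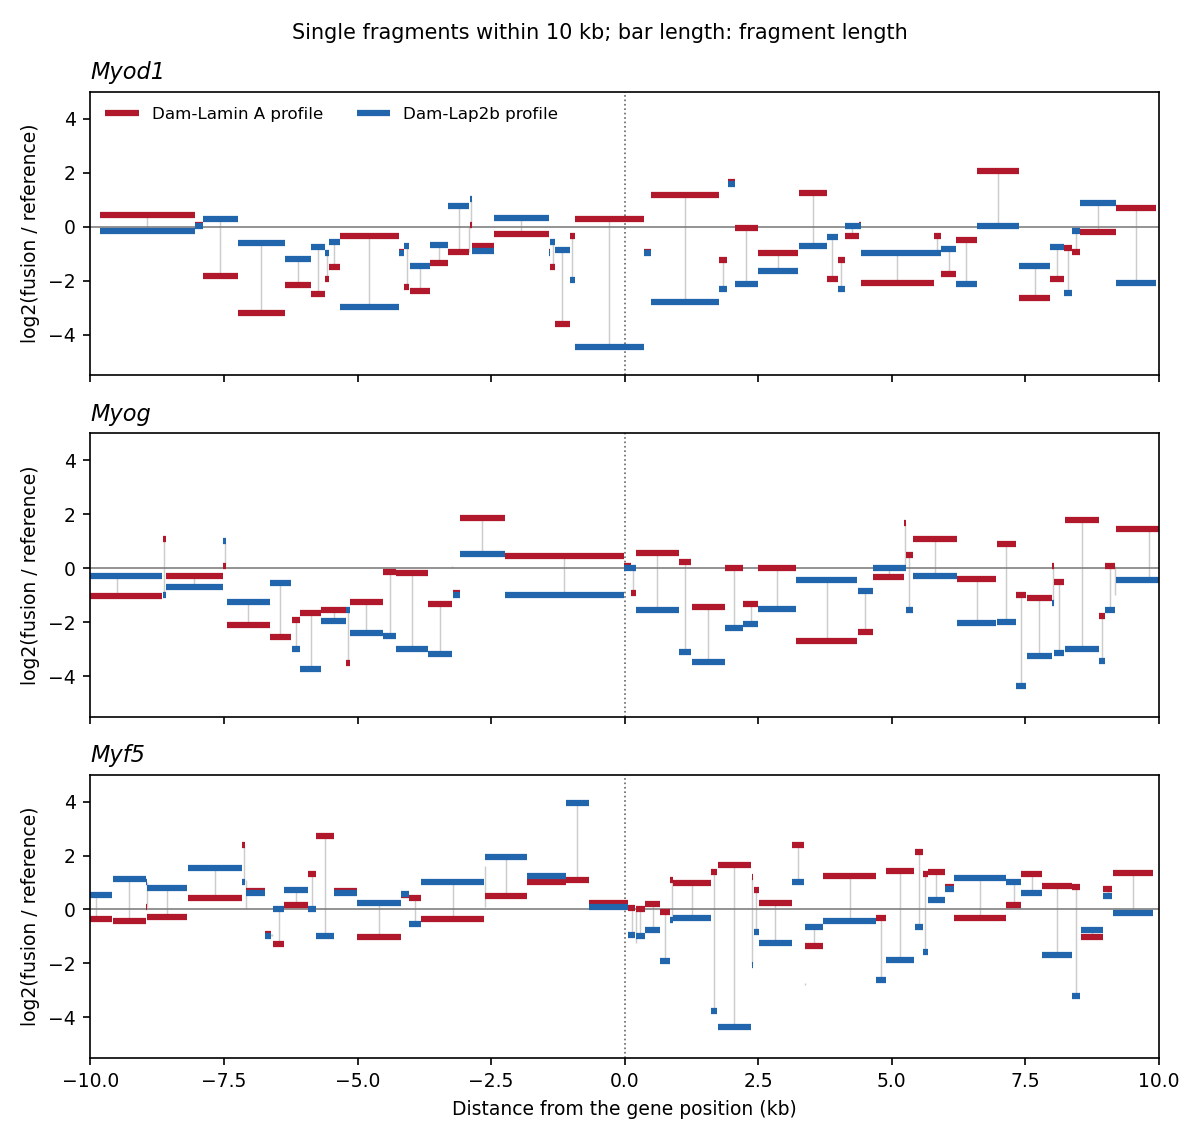
Log2 values (y axis) of single fragments within 10 kb of each gene position (x axis, kb), in the Dam-Lamin A profile (red) and the Dam-Lap2b profile (blue, drawn over red where the values coincide); the length of a bar is the length of the fragment, and grey lines join the values of a fragment. At Myf5 the values part to the right of the position, most in the 633 bp fragment (1.63 and −4.37), and at Myod1 in the 1299 bp fragment over the position (0.28 and −4.44).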

How the data were processed

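Reads were aligned with Bowtie to mm9, per the submitters' processing notes. The version, the counting, the normalization and the domain caller are not given in the sources used here. The deposited profiles held log2 values per fragment between GATC sites, and the deposited domain lists held starts and ends with no score. The group of each sample was taken from its label. The members and the rules were chosen with earlier results of these data known.

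From the values, each log2 value had the form of a constant (0.085 for Dam-Lamin A, 0.022 for Dam-Lap2b) plus log2((fusion reads + 1)/(reference reads + 1)). Read numbers were recovered for 99.9968% of fragments as the smallest integers, up to 5000 in the denominator, that matched both profiles. Their sums, 139425243 (Dam-Lamin A), 151510304 (Dam-Lap2b) and 153448465 (reference), are lower bounds. The median fragment held 10, 10 and 7 reads.

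Bins of 10 kb with at least 5 fragments and windows of 100 kb with at least 50 were averaged without weights in Python 3.11.15 (numpy 2.4.6, pandas 2.3.3), and the steps were tested on simulated data. Coordinates are mm9, counted from 1. Values were given for the 3 genes that the rule named. Other muscle genes had no mm9 position in the sources used here and were not analysed here. Alternatives varied the window, bins, averaging, fragments, scale, centring and domains.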

Additional observations from a re-analysis of the deposited data

Results flagged for a closer look

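The bin of 10 kb that holds Myf5 moved away from its neighbours in opposite directions in the Dam-Lamin A and Dam-Lap2b samples. Its value minus the mean of the 9 other bins within 50 kb was 0.66 in the Dam-Lamin A profile and −1.35 in the Dam-Lap2b profile. The SD of those 9 bins was 0.34 and 0.28. The difference between the samples was not tested, since each group had 1 sample.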

How the results depend on the processing

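The alternatives gave 174 values, of which 158 kept their direction and moved by less than the SD of the 10 kb bins of the same locus, or by less than 10 kb for distances. Centring on the genome-wide median of bins moved the Dam-Lap2b mean at Myod1 to −1.50 and turned the means at Myf5 to −0.24 (Dam-Lamin A) and −0.17 (Dam-Lap2b). Weighting by length turned the Dam-Lamin A mean at Myf5 to −0.017, and a half-width of 100 kb moved it to 0.52 and its difference from the surroundings to −0.042. The Dam-Lap2b difference of Myog from its surroundings turned to −0.10 with length weights, −0.0067 with medians and −0.043 with fragments of 200 to 1000 bp. With 20 kb bins the Dam-Lamin A value of the bin with Myog moved from −0.70 to −0.21. Domains called as runs of bins above 0 lay 2513 kb from Myog in the Dam-Lap2b profile, in place of 2462 kb, and 51.0 kb (Dam-Lamin A) and 1.0 kb (Dam-Lap2b) from Myf5. The difference between the profiles at Myf5 turned to 0.040 with a half-width of 25 kb, while in the bin with Myf5 it stayed between 0.72 and 2.19, and in the bin with Myod1 between 0.031 and 1.35. The alternatives for differences between profiles were chosen after seeing the data. For these changes the cause was not tested. No paired analysis was possible because each group had 1 sample. Depth limits single fragments: 13.0%, 10.9% and 16.4% were recovered at 0 for Dam-Lamin A, Dam-Lap2b and the reference, as upper bounds.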
